A study of Mus musculus with 6 samples.

Results

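Lysosomes and other acidic compartments of the mouse lens were examined through 47 genes, those whose names mark them as a cathepsin (Cts and a letter), a lysosome-associated membrane protein (Lamp and a number) or a part of the vacuolar proton pump (Atp6), out of 41128 features listed. Mitochondrially encoded genes, pseudogenes and opposite-strand transcripts were left out by name. The genes comprised 18 cathepsins, 4 LAMP genes, 13 V1 and 9 V0 subunit genes of the pump and 3 genes of its accessory proteins. RNA was sequenced from whole lenses at E13.5, a stage of embryonic fibre growth, in 3 libraries of Prox1 cKO lenses (genotype Prox1 f/f MLR10Cre+) and 3 libraries of wild type lenses. The strain label of both groups was C57Bl/6, each library was a separate biological replicate from a pool of 30 lenses, and neither group was a Cre-only or floxed-only control. MLR10Cre is driven by a modified αA-crystallin promoter active in lens epithelium and fibres, so Prox1 in other cells of the dissected tissue need not have been deleted. Genotype, the transgene and the floxed alleles can therefore not be told apart in the comparison, and p-values describe the spread between pools, which may have shared litters.

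The vacuolar ATPase pumps protons into lysosomes, endosomes and secretory vesicles. Its V1 sector, on the cytosolic side, hydrolyses ATP and turns a rotor, and its V0 sector, in the membrane, carries the protons across. The acid activates the cathepsins, proteases that break down proteins delivered by endocytosis and autophagy, while LAMP glycoproteins line the lysosomal membrane. In the lens, fibre cells fill with crystallins and later degrade their nuclei and organelles, and the acid nuclease encoded by Dnase2b is known to clear fibre cell DNA. Many lysosomal genes carry the E-box CACGTG near their start sites, a sequence bound by TFEB, TFE3 and MITF, which belong to the MiT/TFE family of transcription factors.

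Total counts ranged from 9082219 to 28391662 in the cKO libraries and from 20731491 to 21061582 in the wild type libraries. Prox1 itself stood at 650, 728 and 707 CPM in the cKO libraries, against 922, 1214 and 1245 CPM in the wild type libraries, so that its transcripts were reduced but still present (log2 fold change -0.70, SE 0.134, adjusted p = 0.00464). Counts outside the floxed exons, a detail not given in the sources used here, do not report the deletion. CPM here means the count scaled to library size and by TMM (trimmed mean of M-values), and log2 fold changes are cKO minus wild type from the edgeR quasi-likelihood test. A gene is called risen or fallen where its p, adjusted by Benjamini-Hochberg over all 14271 features tested, was below 0.05. Crystallin genes took 2.83% to 3.14% of the counts in cKO libraries, against 13.2% in wild type library 1 and 21.5% and 22.7% in wild type libraries 2 and 3, so that wild type library 1 stood apart from its group. The lens epithelium markers were present in both groups and summed to 3178 to 3334 CPM in cKO and 3033 to 3556 CPM in wild type, but moved both ways, with 5 risen and 2 fallen of 8. Sfrp1, the largest of them, fell (log2 fold change -1.16), and Gja1 rose (1.28). Lens fibre markers summed to 22350 to 26320 CPM in cKO and 117300 to 226500 CPM in wild type, and 13 of 13 fell. In whole lenses, fewer cells of a type and less RNA per cell cannot be told apart.

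Of the 47 genes, 35 had enough counts to be tested, and 7 of these rose in Prox1 cKO lenses, 14 fell and 14 were not called. That is 60.0% called, against 32.3% of all features tested. The risen genes were 20% of those tested, against 15.4% of all features, and the fallen genes 40.0%, against 17.0% of all features. The cKO and wild type libraries did not overlap in 26 of the 35 genes (74.3%), against 50.1% of all features. The median log2 fold change was -0.20 over the 35 genes and 0.04 over all features. Most of the changes were small, with a median of 1.86-fold among the 7 that rose and 1.52-fold among the 14 that fell, against 1.71-fold and 1.58-fold among all features that rose and fell. At least 2-fold changes were found in Ctsk, Ctso and Atp6v1b1, which rose, and in Atp6v0a4, which fell, against 10.4% of all features past both thresholds. The counts depended on single libraries, as did those of all features. There were 4 risen and 11 fallen genes without cKO library 2, against 1506 and 1785 of all 14517 features tested there. Without wild type library 2 there were again 4 and 11, against 862 and 1461 of 14603 features. Without wild type library 3 there were 3 and 11, against 985 and 1594 of 14574 features.

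**Figure D1:**
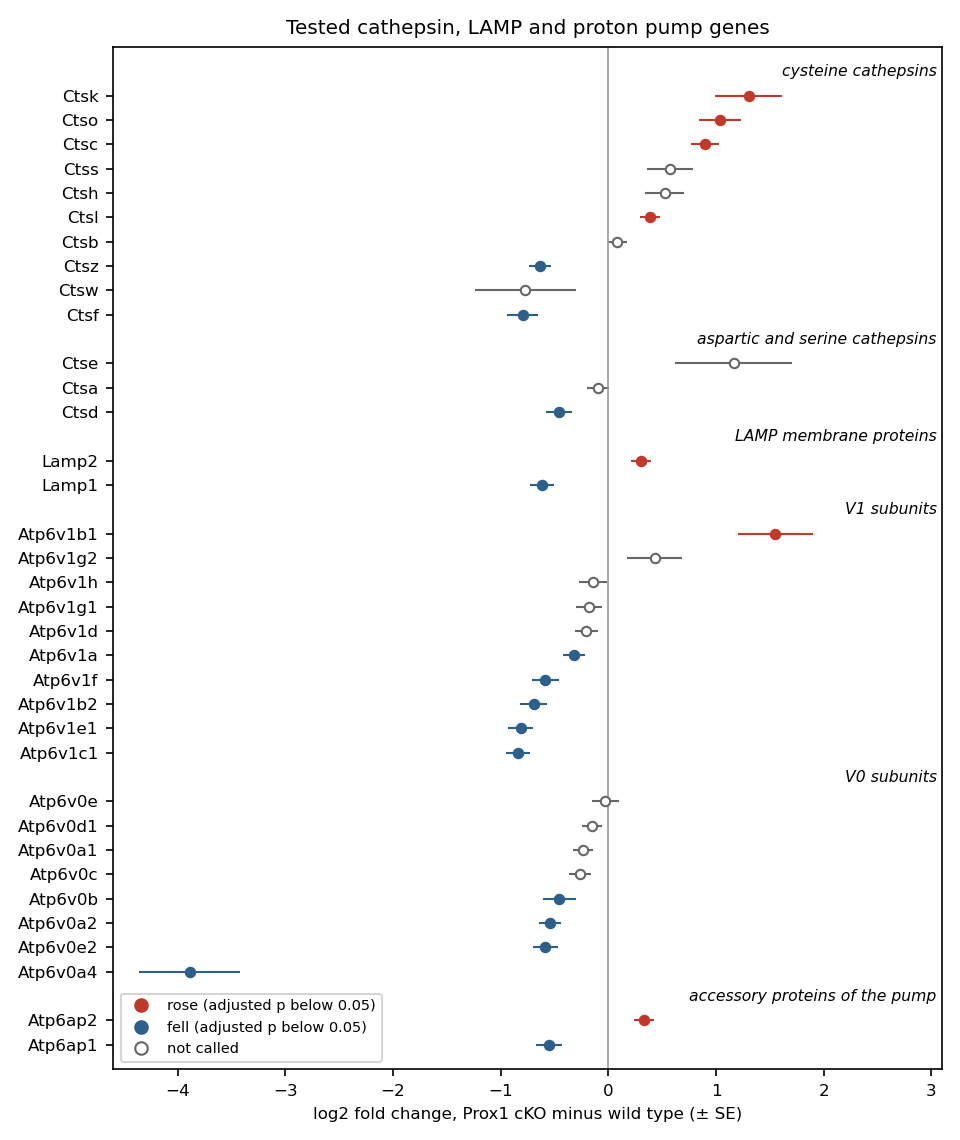
Log2 fold changes (cKO minus wild type, with TMM) of the 35 tested genes by role, with horizontal bars of 1 SE on each side and filled points for genes past an adjusted p of 0.05. Cathepsins lie on both sides of 0, while 16 of the 18 tested subunits of the proton pump lie below it.

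Directions depended on how the libraries were scaled. With library totals alone, the median over all features moved to 0.39 on the log2 scale, and 84.9% of all called features were higher in cKO, against 47.5% with TMM. The 35 genes then split into 12 risen and 5 fallen, against 5357 risen and 952 fallen of all 14271 features. Relative to that median, 16 of the 18 tested pump subunits were below the median of all features, although only 8 of the 18 had negative values. All other changes are given with TMM scaling.

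Promoters are shown for 4 genes that carry the E-box CACGTG, since this is the letter string known from lysosomal genes. Here a promoter is the window around the start of the gene as RefSeq gives it. The genes are Ctsd and Lamp1, the most abundant cathepsin and LAMP transcripts, Atp6v1a, the catalytic subunit of the pump, and Ctsl, the only risen gene with the E-box in its RefSeq window. Each run is 300 bases of RefSeq sequence in build GRCm38.p6, from 250 bases before the RefSeq start of the gene to 50 after it, printed 5′ to 3′ on the gene's own strand with CACGTG in capitals. The regions are chr7:142387778-142388077 (minus strand) for Ctsd, chr8:13158911-13159210 (plus strand) for Lamp1, chr16:44139210-44139509 (minus strand) for Atp6v1a and chr13:64370471-64370770 (minus strand) for Ctsl. The RefSeq start is the outermost start in GENCODE release M21 for Lamp1, but lies 211 bases inside the GENCODE gene for Ctsd, 446 for Atp6v1a and 370 for Ctsl. The windows of Atp6v1a and Ctsl therefore lie wholly within the genes as GENCODE draws them.
Ctsd: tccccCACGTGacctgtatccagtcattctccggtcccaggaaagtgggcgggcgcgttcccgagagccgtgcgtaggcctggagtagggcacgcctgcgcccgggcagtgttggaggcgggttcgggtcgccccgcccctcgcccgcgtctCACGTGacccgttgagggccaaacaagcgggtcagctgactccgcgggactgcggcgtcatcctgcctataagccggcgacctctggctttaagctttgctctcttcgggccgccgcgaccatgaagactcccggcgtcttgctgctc
Lamp1: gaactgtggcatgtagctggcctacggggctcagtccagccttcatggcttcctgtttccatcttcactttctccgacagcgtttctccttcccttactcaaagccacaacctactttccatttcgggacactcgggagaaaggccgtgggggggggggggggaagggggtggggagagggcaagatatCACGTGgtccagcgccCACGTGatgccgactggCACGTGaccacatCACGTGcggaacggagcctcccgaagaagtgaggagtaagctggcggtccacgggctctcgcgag
Atp6v1a: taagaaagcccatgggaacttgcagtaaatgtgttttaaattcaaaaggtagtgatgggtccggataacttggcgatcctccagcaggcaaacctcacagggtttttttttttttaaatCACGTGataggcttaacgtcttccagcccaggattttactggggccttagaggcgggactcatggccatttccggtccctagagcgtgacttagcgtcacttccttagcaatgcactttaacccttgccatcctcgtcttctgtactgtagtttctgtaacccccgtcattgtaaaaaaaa
Ctsl: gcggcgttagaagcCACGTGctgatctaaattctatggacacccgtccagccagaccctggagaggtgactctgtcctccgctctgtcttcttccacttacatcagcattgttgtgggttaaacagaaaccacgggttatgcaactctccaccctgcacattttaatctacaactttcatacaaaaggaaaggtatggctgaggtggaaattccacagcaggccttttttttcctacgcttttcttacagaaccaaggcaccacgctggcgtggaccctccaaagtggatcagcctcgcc
The Lamp1 promoter holds 4 copies, which begin at positions -61, -45, -28 and -15 from the RefSeq start, and that of Ctsd holds 2. The copy of Atp6v1a and 1 of the 2 of Ctsd lie within the longer palindrome TCACGTGA.

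RefSeq promoters were matched for 36 of the 47 genes. CACGTG, which reads the same on both strands, was present in 9 of the 36 (25%), against 11.5% of the genes of tested features (1216 of 10595) and 8.09% of all 27025 genes with a promoter sequence. TCACGTGA, each copy of which contains a CACGTG, was present in 5 of the 36 (13.9%), against 2.09% and 1.12%. By direction, CACGTG was found in 5 of the 11 fallen genes with a promoter (Ctsd, Ctsf, Lamp1, Atp6v1a and Atp6v0b), in 1 of 7 risen genes (Ctsl) and in 3 of 8 genes not called (Ctsa, Atp6v0d1 and Atp6v0e). It was in 0 of the 10 untested genes with a promoter, which are among the 36 but not among the genes of tested features. These matches describe letters in a window of 300 bases and not binding.

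**Figure D2:**
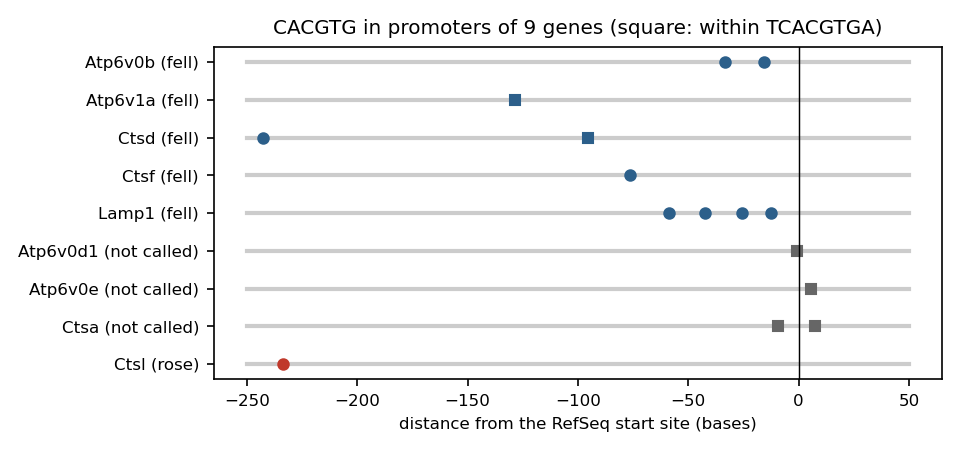
Positions of CACGTG relative to the RefSeq start of the gene (in bases) in the 9 promoters that hold it, with squares where the copy lies within TCACGTGA. Lamp1 has 4 copies from -61 on, and the farthest copies of Ctsd and Ctsl begin at -245 and -236.

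Among the cathepsins, 13 of 18 were tested, and 4 rose (30.8%, against 15.4% of all features), 3 fell (23.1%, against 17.0%) and 6 were not called. With library totals alone, 8 rose and 1 fell, against 5357 risen and 952 fallen of all 14271 features. The median log2 fold change was 0.39, against 0.04 over all features. The summed level was 1057 to 1102 CPM in cKO libraries and 1116 to 1285 CPM in wild type libraries. Ctsd carried this difference in the sum, since the sums without Ctsd overlapped, at 692 to 729 CPM in cKO and 688 to 718 CPM in wild type. The 14 cysteine cathepsins summed to 598 to 631 CPM in cKO and 580 to 616 CPM in wild type, ranges that overlap.

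Ctsk, a cysteine cathepsin best known for collagen breakdown in osteoclasts, had 12.5, 6.26 and 15.2 CPM in cKO libraries 1 to 3, against 5.21, 3.66 and 4.83 CPM in wild type libraries 1 to 3. All cKO libraries were above all wild type libraries, with cKO library 2 closest to them (log2 fold change 1.304, SE 0.312, adjusted p = 0.0146). The call ended without wild type library 2 (adjusted p = 0.0729) and without wild type library 3 (adjusted p = 0.052). The summed markers of periocular mesenchyme, a collagen-rich tissue around the lens, were 1244, 863 and 3702 CPM in the cKO libraries, against 687, 338 and 611 CPM in the wild type libraries. They were highest and lowest in the same cKO libraries as Ctsk, and likewise lowest in wild type library 2 and highest in wild type library 1. In that list 10 of 11 markers were tested, and Foxc2 was at 0 in all libraries. All 10 were higher in cKO without passing the threshold in edgeR. Of the 10, 6 had an unadjusted p below 0.05, against 6417 of all 14271 features. The part of this tissue in the Ctsk result was not tested.

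Ctso, a little-studied cysteine cathepsin of most tissues, had 8.11, 8.34 and 8.06 CPM in cKO libraries, against 4.20, 3.15 and 4.60 CPM in wild type libraries. The cKO libraries were nearly equal, and the level was 2.05-fold higher in cKO (log2 fold change 1.03, SE 0.196, adjusted p = 0.00432). Ctsc, the dipeptidyl peptidase that activates serine proteases of immune granules, had 51.5, 52.6 and 54.1 CPM in cKO libraries, against 33.7, 24.8 and 26.2 CPM in wild type libraries. It was 1.86-fold higher in cKO with no overlap (log2 fold change 0.90, SE 0.129, adjusted p = 0.00115). Both calls held on leaving out each library in turn.

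Ctsl, a broadly acting endopeptidase, had 169, 176 and 164 CPM in cKO libraries, against 118, 139 and 133 CPM in wild type libraries. It was 1.31-fold higher in cKO (log2 fold change 0.39, SE 0.0937, adjusted p = 0.0133). The call ended without cKO library 2 (adjusted p = 0.0529) and without wild type library 3 (adjusted p = 0.0703). In the GENCODE release M21 annotation, 26.9% of its exon bases lie opposite another annotated transcript, and these unstranded libraries cannot tell the strands apart.

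The fallen cathepsins were Ctsf, Ctsz and Ctsd. Ctsf, a lysosomal endopeptidase, had 54.6, 69.6 and 54.3 CPM in cKO libraries, against 85.6, 120 and 104 CPM in wild type libraries. Its groups did not overlap, and it was 1.74-fold lower in cKO (log2 fold change -0.80, SE 0.147, adjusted p = 0.00401). Ctsz, a carboxypeptidase, had 75.9, 72.0 and 68.6 CPM in cKO libraries, against 100, 112 and 124 CPM in wild type libraries. Every cKO library was below every wild type library (log2 fold change -0.63, SE 0.104, adjusted p = 0.00222).

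Ctsd, the main aspartic protease of lysosomes, was the most abundant of the 47 transcripts, with 344, 372 and 386 CPM in cKO libraries, against 428, 568 and 519 CPM in wild type libraries. Wild type library 1 was the nearest to the cKO libraries, and the level was 1.38-fold lower in cKO (log2 fold change -0.46, SE 0.122, adjusted p = 0.0194). The call ended without cKO library 2 (adjusted p = 0.0541), wild type library 2 (adjusted p = 0.0823) or wild type library 3 (adjusted p = 0.0701). Of its exon bases, 34.4% are shared with a transcript annotated on the same strand. Ctsd carries 2 of the E-boxes printed above, and Ctsl, which moved the other way, carries 1.

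Of the cathepsins not called, Ctsb, a cysteine protease with both endopeptidase and dipeptidyl carboxypeptidase activity, was the steadiest. It had 211, 225 and 215 CPM in cKO libraries and 216, 201 and 197 CPM in wild type libraries, overlapping ranges (log2 fold change 0.08, SE 0.0878, adjusted p = 0.492). With library totals alone Ctsb was called as risen (log2 fold change 0.43, adjusted p = 0.0192). Ctsa, the protective carboxypeptidase of galactosidase and neuraminidase, had 93.1 to 111 CPM in cKO and 101 to 113 CPM in wild type. For Ctsb 12.8% and for Ctsa 17.4% of exon bases lie opposite other genes.

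Ctss and Ctsh are abundant in antigen-presenting cells, where Ctss trims the invariant chain. Ctss had 8.78, 10.6 and 8.77 CPM in cKO libraries, against 8.16, 5.84 and 4.83 CPM in wild type libraries, and Ctsh had 9.25, 10.1 and 9.47 CPM in cKO libraries, against 8.06, 6.47 and 5.47 CPM in wild type libraries. In both, wild type library 1 was close to the cKO libraries without overlap (log2 fold changes 0.57 and 0.52, adjusted p = 0.070 and 0.055), and both passed the threshold without wild type library 1 (adjusted p = 0.0174 and 0.025). Summed macrophage markers were 126 to 176 CPM in cKO libraries, against 73.1 to 151 CPM in wild type libraries, with wild type library 1 at the top of its group. All 16 tested markers of that list were higher in cKO, 0 passed the threshold in edgeR, and none was at 0. Of the 16, 2 had an unadjusted p below 0.05, against 6417 of all 14271 features. The part of macrophages in these values was not tested. Ctss and Ctsk lie 17423 bases apart on chromosome 3, in the same direction.

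Low cathepsins were Ctse, an aspartic protease of immune and gastric cells, at 0.470 to 0.834 CPM in cKO and 0.145 to 0.515 CPM in wild type, and Ctsw, known from cytotoxic lymphocytes, at 0.264 to 0.504 CPM in cKO and 0.386 to 0.748 CPM in wild type. Neither was called (log2 fold changes 1.16 and -0.77, adjusted p = 0.127 and 0.230), and both had groups that overlap. Ctsg, of neutrophil granules, did not pass the filter, with 23 counts summed over cKO and 15 over wild type. The rodent placental cathepsins Ctsj, Ctsm, Ctsq and Ctsr, which lie together at positions 61000179 to 61541839 of chromosome 13, had at most 1 count in a library, and Ctsj and Ctsm had 0 counts in all 6. A count of 0 allows up to 0.106 to 0.33 CPM in these libraries (3 counts, counting error only).

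The LAMP pair, Lamp1 and Lamp2, moved in opposite directions. Lamp1, the major glycoprotein of the lysosomal membrane, had 280, 298 and 282 CPM in cKO libraries, against 383, 476 and 462 CPM in wild type libraries. The groups were well apart, and Lamp1 was 1.54-fold lower in cKO (log2 fold change -0.62, SE 0.109, adjusted p = 0.00311). Lamp2, whose A form is the receptor of chaperone-mediated autophagy, had 180, 185 and 198 CPM in cKO libraries, against 143, 161 and 152 CPM in wild type libraries. It was 1.23-fold higher in cKO (log2 fold change 0.30, SE 0.0913, adjusted p = 0.0332), and its splice forms are not separate in the gene counts. The Lamp2 call ended without cKO library 2 (adjusted p = 0.0787), cKO library 3 (0.0778), wild type library 1 (0.115), wild type library 2 (0.0911) or wild type library 3 (0.154), while that of Lamp1 held in each case. Lamp3, known from mature dendritic cells, had 10 counts over cKO and 28 over wild type, and Lamp5, known from neurons, had 8 counts over cKO and 1 over wild type, so neither was tested.

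**Figure D3:**
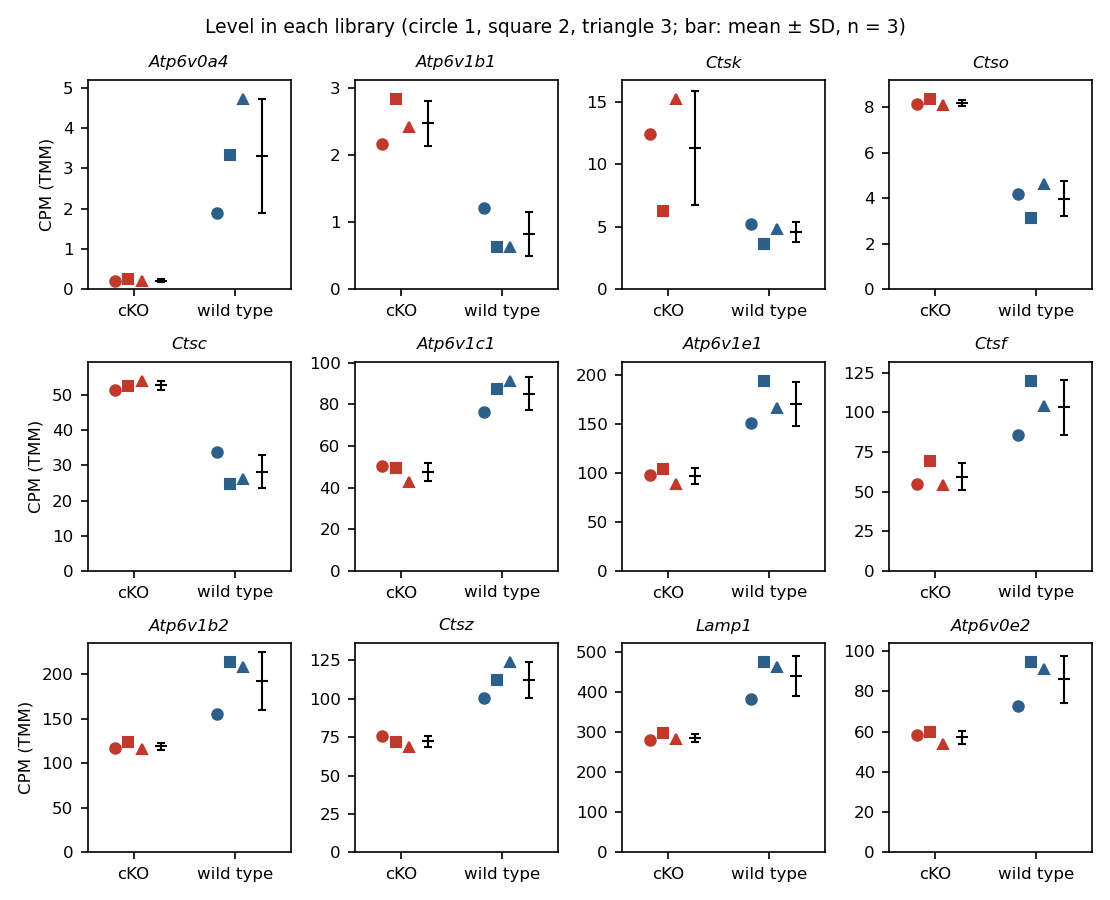
Level of the 12 called genes of largest change in each library, in TMM-scaled CPM on axes that start at 0, with cKO left of wild type a circle, square and triangle for libraries 1, 2 and 3, and bars for the mean ± SD (n = 3). The groups do not overlap in any of the 12, which were picked as called genes of large change, against 50.1% of all features tested. Atp6v0a4 is near 0 in all cKO libraries.

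Of the 22 subunit genes of the proton pump, 18 were tested, and 1 rose (5.56%, against 15.4% of all features), 9 fell (50%, against 17.0%) and 8 were not called. With library totals alone, 2 rose and 4 fell, against 5357 risen and 952 fallen of all 14271 features. The summed level of the 22 genes was 1025 to 1128 CPM in cKO libraries, against 1317 to 1578 CPM in wild type libraries. The V1 sector had 1 risen and 5 fallen genes among 10 tested and the V0 sector 0 risen and 4 fallen among 8. The median log2 fold change was -0.26 in V1 and -0.36 in V0, against 0.04 over all features. The V0 sector had 6 of its 8 genes at an unadjusted p below 0.05, all lower in cKO with TMM, against 6417 of all 14271 features in either direction. Of the 6, Atp6v0a1 and Atp6v0c were higher in cKO with library totals alone (log2 fold changes 0.11 and 0.10).

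In the V1 head, Atp6v1a encodes the catalytic A subunit and Atp6v1b2 the common form of the regulatory B subunit. Atp6v1a had 101, 116 and 114 CPM in cKO libraries, against 131, 151 and 128 CPM in wild type libraries. It was the smallest of the fallen genes, at 1.24-fold (log2 fold change -0.32, SE 0.103, adjusted p = 0.0419). Its call ended without cKO library 1 (adjusted p = 0.0944), 2 (0.0723) or 3 (0.0627), and without wild type library 2 (0.138) or 3 (0.0684). Atp6v1b2 had 117, 124 and 116 CPM in cKO libraries, against 155, 214 and 208 CPM in wild type libraries. It was 1.62-fold lower in cKO, with wild type library 1 nearest to the cKO libraries (log2 fold change -0.69, SE 0.127, adjusted p = 0.00373).

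Atp6v1b1, the B form known from acid-secreting cells of kidney and inner ear, went the other way. It had 2.17, 2.84 and 2.42 CPM in cKO libraries, against 1.21, 0.629 and 0.633 CPM in wild type libraries. The gene was low in both groups, with 132 counts over cKO and 47 over wild type, and 2.93-fold higher in cKO (log2 fold change 1.55, SE 0.345, adjusted p = 0.00925). Per length, Atp6v1b1 made up 5.42 ± 0.546% of the B subunit transcripts in cKO and 1.25 ± 0.739% in wild type (SD, n = 3 each). With the length of all its annotated exons in place of the shorter one behind the deposited RPKM, an alternative chosen after seeing the data, its share was 2.46 ± 0.255% in cKO and 0.552 ± 0.330% in wild type. Surface ectoderm markers, of a tissue next to the lens, summed to 53.4 to 160 CPM in cKO libraries, against 25.5 to 44.0 CPM in wild type libraries. Of these markers 5 of 9 rose (55.6%, against 15.4% of all features), with none at 0. Their highest cKO library was library 3 and their lowest library 2, whereas Atp6v1b1 was highest in cKO library 2. Within wild type, both the markers and Atp6v1b1 were highest in library 1 and lowest in library 2, with Atp6v1b1 nearly equal in libraries 2 and 3. The part of other tissues in its level was not tested.

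The stalk subunits of V1 hold the head against the membrane. Atp6v1c1, which couples head and membrane and whose release takes the pump apart, had 50.4, 49.2 and 42.6 CPM in cKO libraries, against 76.1, 87.6 and 91.5 CPM in wild type libraries. It was the most strongly reduced V1 gene, at 1.79-fold lower in cKO (log2 fold change -0.84, SE 0.110, adjusted p = 0.000723). Atp6v1e1, a part of the peripheral stalks, had 98.2, 104 and 88.7 CPM in cKO libraries, against 151, 195 and 166 CPM in wild type libraries. It was 1.76-fold lower in cKO (log2 fold change -0.81, SE 0.117, adjusted p = 0.00115). Atp6v1f, a part of the central rotor, had 59.7, 56.0 and 50.7 CPM in cKO libraries, against 69.8, 91.4 and 88.9 CPM in wild type libraries. Wild type library 1 was again the nearest to the cKO libraries (log2 fold change -0.58, SE 0.124, adjusted p = 0.0074).

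The other tested V1 genes were not called. Atp6v1g1, the partner of E in the stalks, had 106, 98.6 and 81.3 CPM in cKO libraries and 97.5, 117 and 110 CPM in wild type libraries, with overlap (log2 fold change -0.18, adjusted p = 0.279). Its brain form Atp6v1g2 had 8.02, 5.59 and 5.75 CPM in cKO libraries and 4.01, 4.06 and 6.5 CPM in wild type libraries, and made up 2.97 ± 0.418% of G transcripts per length in cKO and 1.99 ± 0.555% in wild type (SD, n = 3 each). The central rotor gene Atp6v1d had 50.5 to 59.5 CPM in cKO and 57.5 to 66.6 CPM in wild type, and the regulatory Atp6v1h 56.3 to 79.0 CPM in cKO and 72.8 to 83.5 CPM in wild type. Atp6v1d passed the threshold without wild type library 1 (adjusted p = 0.0491). The other 3 tissue-restricted forms were not tested, the kidney form Atp6v1c2 with 13 counts over cKO and 29 over wild type, the testis form Atp6v1e2 with 18 over cKO and 8 over wild type, and the kidney form Atp6v1g3 with 0 counts in all libraries.

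In the V0 sector, the a subunit forms the proton path and its isoforms steer the pump to different membranes. Atp6v0a4, the a form known from acid-secreting kidney and inner ear cells, had 0.206, 0.250 and 0.202 CPM in cKO libraries, against 1.88, 3.32 and 4.72 CPM in wild type libraries. These are 7, 3 and 2 counts in the cKO libraries and 39, 58 and 82 counts in the wild type libraries. Every cKO library was far below every wild type library, and the fitted difference was the largest of all 35 genes, 14.8-fold lower in cKO (log2 fold change -3.89, SE 0.468, adjusted p = 0.00047). Over the pooled counts of a group, TMM-scaled CPM was 0.215 in cKO (exact Poisson 95% interval 0.111 to 0.375, counting error only) and 3.22 in wild type (2.77 to 3.73). The call held on leaving out each library in turn and under the 9 other settings tried. Of its exon bases, 5.21% are shared with a gene on the same strand and 1.25% with one on the opposite strand. The Atp6v0a4 and Atp6v1b1 proteins are known to work together in kidney, but their transcripts moved in opposite directions here.

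Atp6v0a2, a Golgi and endosome form, had 40.1, 45.6 and 46.6 CPM in cKO libraries, against 61.3, 67.4 and 63.3 CPM in wild type libraries, with no overlap (log2 fold change -0.54, SE 0.0998, adjusted p = 0.0039). Atp6v0a1, the form best known from neurons, had 58.5, 59.8 and 67.3 CPM in cKO libraries and 73.1, 71.4 and 74.3 CPM in wild type libraries. The groups of Atp6v0a1 did not overlap, but it was not called (log2 fold change -0.24, SE 0.0926, adjusted p = 0.0753) except without cKO library 3 (adjusted p = 0.0411). Per length, Atp6v0a2 made up 60.6 ± 1.4% of the a transcripts in cKO and 64.2 ± 1.46% in wild type, and Atp6v0a1 39.2 ± 1.42% in cKO and 33.8 ± 1.46% in wild type (SD, n = 3 each). Atp6v0a4 was 0.184 ± 0.0249% in cKO and 2.00 ± 0.833% in wild type. The order of Atp6v0a1 and Atp6v0a2 rests on the length behind RPKM, since with all annotated exons Atp6v0a2 was 40.9 ± 1.43% in cKO and 44.7 ± 1.57% in wild type, and Atp6v0a1 58.9 ± 1.46% in cKO and 52.3 ± 1.76% in wild type. The osteoclast a form, Tcirg1, was 12.7 to 14.2 CPM in cKO and 10.2 to 14.6 CPM in wild type and was not called (log2 fold change 0.21, adjusted p = 0.366). It is not among the 47 genes or these shares because its name does not begin with Atp6.

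The proton-carrying ring of V0 is built from the proteolipids encoded by Atp6v0c and Atp6v0b. Atp6v0c, the most abundant of the V0 genes in CPM, had 135, 122 and 111 CPM in cKO libraries and 136, 152 and 153 CPM in wild type libraries. The closest cKO and wild type libraries were nearly equal, and it was not called (log2 fold change -0.26, SE 0.102, adjusted p = 0.079), except without cKO library 1 (adjusted p = 0.0384) or wild type library 1 (adjusted p = 0.0313). Atp6v0b had 36.2, 35.7 and 30.3 CPM in cKO libraries, against 36.5, 54.5 and 49.7 CPM in wild type libraries. Wild type library 1 was just above the cKO libraries (log2 fold change -0.46, SE 0.154, adjusted p = 0.0483). The Atp6v0b call ended without cKO library 1 (adjusted p = 0.0698), 2 (0.0907) or 3 (0.131), and without wild type library 2 (0.171) or 3 (0.133).

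Atp6v0d1, which joins the ring to the V1 rotor, had 84.0, 86.3 and 76.4 CPM in cKO libraries and 89.0, 89.2 and 95.8 CPM in wild type libraries and was not called (log2 fold change -0.15, SE 0.0912, adjusted p = 0.229). It was 99.97% of the d transcripts per length in both groups, since the osteoclast form Atp6v0d2 had 2 counts over cKO and 2 over wild type. The small e subunit differed between its forms. Atp6v0e2 had 58.4, 59.8 and 53.6 CPM in cKO libraries, against 72.6, 94.5 and 90.9 CPM in wild type libraries, and fell (log2 fold change -0.59, SE 0.117, adjusted p = 0.00567). Atp6v0e had 32.8, 33.2 and 26.8 CPM in cKO libraries and 30.0, 35.3 and 29.7 CPM in wild type libraries, with partial overlap (log2 fold change -0.030, SE 0.126, adjusted p = 0.870). Its sign turned with upper quartile scaling, with library totals alone and without cKO library 3 or wild type library 2. Atp6v0e2 made up 76.8 ± 1.14% of e transcripts per length in cKO and 82.8 ± 1.66% in wild type (SD, n = 3 each).

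The accessory proteins moved apart. Atp6ap1, whose product Ac45 guides assembly of V0, had 113, 122 and 106 CPM in cKO libraries, against 139, 183 and 178 CPM in wild type libraries, and fell (log2 fold change -0.55, SE 0.121, adjusted p = 0.00876). Atp6ap2, the prorenin receptor that also binds V0, had 104, 99.8 and 96.0 CPM in cKO libraries, against 74.7, 85.0 and 78.3 CPM in wild type libraries, and rose (log2 fold change 0.33, SE 0.0913, adjusted p = 0.0229). The groups of both genes were apart. The Atp6ap2 call ended without cKO library 2 (adjusted p = 0.0689) and without wild type library 1 (0.0774), 2 (0.0571) or 3 (0.124). Atp6ap1l had 1 count in all. Of the fallen genes, Atp6ap1, Atp6v0a2, Atp6v0b, Atp6v0e2, Atp6v1a, Atp6v1f, Ctsd, Ctsz and Lamp1 lost their call with library totals alone (adjusted p between 0.0876 and 0.845), and Atp6v1a also turned its sign, while Atp6v0a4, Atp6v1b2, Atp6v1c1, Atp6v1e1 and Ctsf stayed fallen.

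Between genes, levels were set side by side per length, as the deposited RPKM divided by the TMM factor. In wild type the order began with Ctsd at 200 ± 28.1, Lamp1 at 195 ± 22.3, Atp6v1e1 at 142 ± 18.5, Atp6v1g1 at 95.2 ± 8.71, Atp6v1f at 78.4 ± 11.1 and Ctsz at 77.7 ± 8.16 RPKM (SD, n = 3). In cKO it began with Ctsd at 146 ± 8.59, Lamp1 at 127 ± 4.51, Ctsl at 86.2 ± 3.03, Atp6v1g1 at 84.0 ± 11.2 and Atp6v1e1 at 80.6 ± 6.54 RPKM (SD, n = 3). The 3 genes after Lamp1 in cKO were within each other's spread, as were Ctsd and Lamp1, and Atp6v1f and Ctsz, in wild type. Ctsl ranked 3 in cKO and 7 in wild type, where it had 65.8 ± 5.34 RPKM. For 16 of the 47 genes the length behind RPKM was under 90% of the union of annotated exons. With the union length, Atp6v1e1 would rank 9 instead of 3 in wild type and Ctsl 18 instead of 7, and in cKO Ctsl 11 instead of 3, below Ctsz and Ctsb, so the order between genes is uncertain for these.

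**Figure D4:**
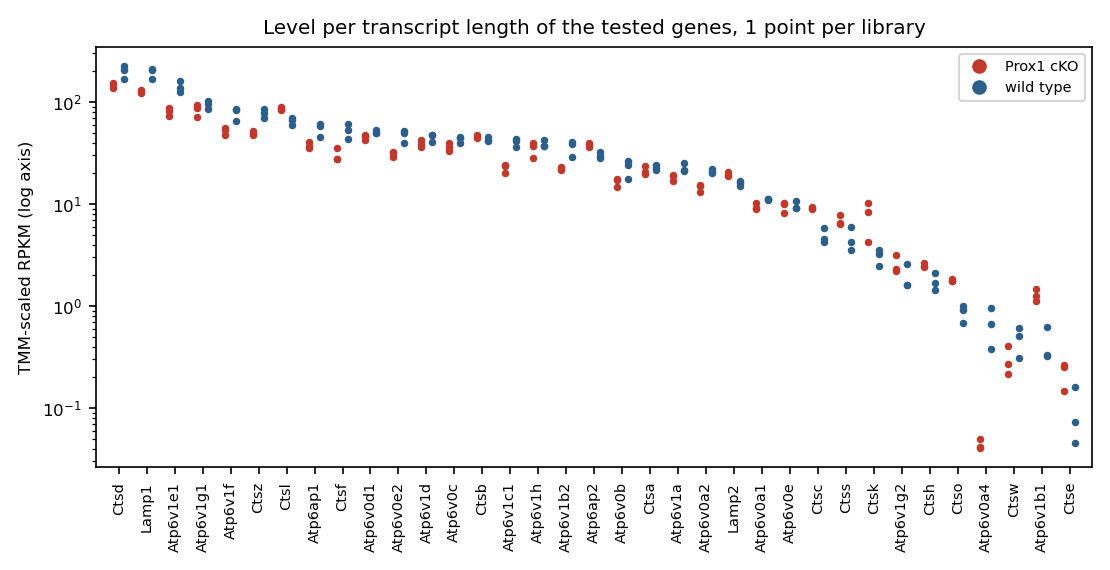
TMM-scaled RPKM of the 35 tested genes on a log axis, 1 point per library with cKO left of wild type, ordered by the wild type mean. Ctsd and Lamp1 lead in both groups, and Atp6v0a4 has the widest gap between them.

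Wild type library 1, with the lowest crystallin share of its group, was the lowest wild type library in 13 of the 14 fallen genes (92.9%), the exception being Atp6v1a, against 2079 of all 2421 fallen features (85.9%). It was the highest wild type library in 3 of the 7 risen genes (Atp6v1b1, Ctsc and Ctsk), against 71.2% of all risen features. Without this library 7 of the 35 genes rose and 16 fell, against 2349 and 2952 of all 14605 features tested there.

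The rest of the lysosomal pathway was read from 107 other genes, of which 98 were tested, and 6 rose, 22 fell and 70 were not called, with a median log2 fold change of -0.12, against 0.04 over all features. The share called was 28.6%, against 32.3% of all features, with 6.12% risen and 22.4% fallen, against 15.4% and 17.0%. With library totals alone 29 rose and 9 fell, against 5357 risen and 952 fallen of all 14271 features. There were 10 risen and 29 fallen genes without wild type library 1, against 2349 and 2952 of all 14605 features tested there. Without cKO library 2 there were 5 and 14, against 1506 and 1785 of 14517 features. Without wild type library 2 there were 4 and 13, against 862 and 1461 of 14603 features. The numbers were also 4 and 13 without wild type library 3, against 985 and 1594 of 14574 features. The summed level of the 107 genes, 5285 to 6126 CPM in cKO and 5469 to 5921 CPM in wild type, overlapped.

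Hydrolases outside the cathepsins had 4 risen and 9 fallen genes among 37 tested (10.8% and 24.3%, against 15.4% and 17.0% of all features). The share called was 35.1%, near the 32.3% of all features. Smpd1, acid sphingomyelinase, had 38.9, 36.4 and 41.4 CPM in cKO libraries, against 58.4, 76.3 and 78.1 CPM in wild type libraries, and fell (log2 fold change -0.87, adjusted p = 0.00131). Glb1, the lysosomal β-galactosidase, also fell (log2 fold change -0.83, adjusted p = 0.00159). The acid DNases moved in opposite directions. Dnase2b, the fibre cell DNase that is also one of the lens fibre markers here, had 9 counts over cKO and 889 over wild type, of which wild type library 1 gave 31.

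Pooled, Dnase2b stood at 0.161 TMM-scaled CPM in cKO (exact Poisson 95% interval 0.0735 to 0.305) and 16.0 in wild type (15.0 to 17.1), and it fell (log2 fold change -6.53, SE 1.65, adjusted p = 0.0346). With 0, 5 and 4 counts in the cKO libraries, the fitted size is uncertain and ranged from -7.34 to -5.33 when single libraries were left out. The call held without wild type library 1 but not without any other library, and the adjusted p was 0.108, 0.0808 and 0.0754 without cKO libraries 1, 2 and 3 and 0.0955 and 0.102 without wild type libraries 2 and 3. The broadly expressed Dnase2a had 3.94, 5.42 and 4.74 CPM in cKO libraries, against 2.56, 2.35 and 1.96 CPM in wild type libraries, and rose (log2 fold change 1.02, SE 0.236, adjusted p = 0.011), but not without wild type library 3 (adjusted p = 0.0529). Of its exon bases 30.0% lie opposite Mast1.

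Genes of the lysosomal membrane and lipid transport had 1 risen and 3 fallen members among 25 tested (4% and 12%, against 15.4% and 17.0% of all features). Mcoln1, the calcium channel that releases lysosomal calcium, had 28.7, 26.3 and 25.7 CPM in cKO libraries, against 55.0, 67.9 and 76.3 CPM in wild type libraries. It was clearly separated (log2 fold change -1.298, SE 0.133, adjusted p = 0.000207). Abca2, a lipid transporter, fell as well (log2 fold change -0.86, adjusted p = 0.00226). The cystine transporter Ctns rose (log2 fold change 0.54, adjusted p = 0.0143), but not without wild type library 2 (adjusted p = 0.0794). Of the 11 sorting genes, the mannose 6-phosphate receptor Igf2r had 417, 610 and 597 CPM in cKO libraries, against 311, 332 and 327 CPM in wild type libraries, and rose (log2 fold change 0.74, SE 0.146, adjusted p = 0.00526). Gga1 and Sort1, which sort enzymes at the Golgi, fell by 0.28 and 0.26 on the log2 scale, and both calls ended on leaving out any single library other than wild type library 1 (adjusted p up to 0.163 and 0.140). Of the 5 tested cathepsin inhibitors, such as Cst3 and Cstb, 0 were called in edgeR and 0 had an unadjusted p below 0.05.

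Assembly and regulation of the pump had 0 risen and 7 fallen genes among 16 tested (43.8% fallen, against 17.0% of all features). Of the 16, 15 were lower in cKO, against 6680 of all 14271 features. Ncoa7, whose product binds V1 and promotes acidification, had 27.5, 38.4 and 35.0 CPM in cKO libraries, against 65.8, 97.2 and 97.2 CPM in wild type libraries (log2 fold change -1.37, SE 0.183, adjusted p = 0.0011). Dmxl1, of the RAVE-type complex that reassembles the pump, had 80.0, 97.2 and 107 CPM in cKO libraries, against 140, 177 and 174 CPM in wild type libraries (log2 fold change -0.79, adjusted p = 0.00261). In both genes all cKO libraries were below all wild type libraries. The Ragulator genes Lamtor4 and Lamtor2, which tie the pump to mTORC1, and the V0 assembly factor Tmem199 fell as well (log2 fold changes -0.88, -0.52 and -0.46, adjusted p = 0.00392, 0.0083 and 0.0103). With library totals alone, Lamtor2 and Tmem199 were not called (log2 fold changes -0.16 and -0.10, adjusted p = 0.357 and 0.607). Ncoa7, Dmxl1 and Lamtor4 stayed fallen there.

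Among the MiT/TFE factors, Tfeb had 3.73, 3.17 and 3.73 CPM in cKO libraries, against 5.98, 10.01 and 13.3 CPM in wild type libraries, and fell (log2 fold change -1.45, adjusted p = 0.00544). Tfe3, at 48.4 to 62.1 CPM in cKO and 50.6 to 52.1 CPM in wild type, was not called (log2 fold change 0.09, with the sign turned without cKO library 2). With library totals alone Tfe3 was called as risen (log2 fold change 0.43, adjusted p = 0.0275), where the median of all features was 0.39. Mitf had 21.9, 19.8 and 38.3 CPM in cKO libraries and 29.4, 29.9 and 36.1 CPM in wild type libraries and was not called (log2 fold change -0.27, adjusted p = 0.426), with cKO library 3 the highest of all. Mitf passed the threshold without cKO library 3 (adjusted p = 0.0151), the library with the most signal of pigment cells, which express Mitf. Pigment cell markers summed to 260 to 729 CPM in cKO libraries, against 60.2 to 176 CPM in wild type libraries. Of 7 tested, 2 rose (28.6%, against 15.4% of all features), and all 7 were higher in cKO. In 6 the groups did not overlap (against 50.1% of all features), and 6 had an unadjusted p below 0.05 in edgeR (against 6417 of all 14271 features). The part of pigment cells in these values was not tested.

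**Figure D5:**
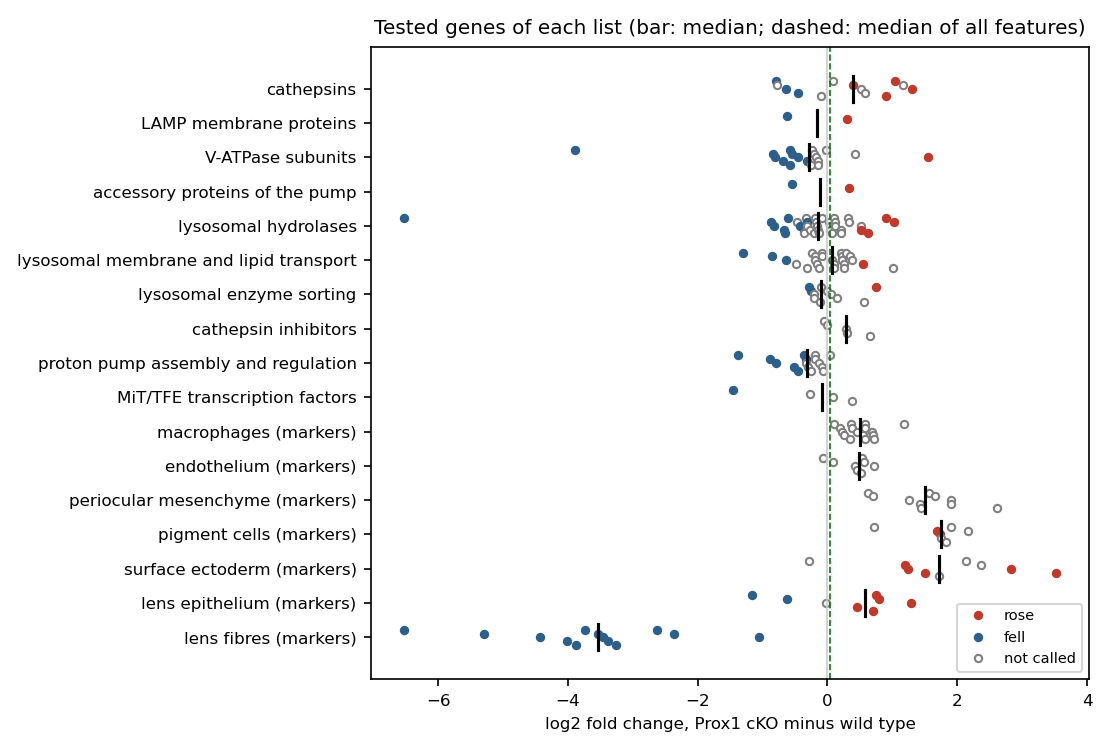
Log2 fold changes (cKO minus wild type) of the tested genes by list, 1 point per gene, filled where the adjusted p was below 0.05, with a bar at the median of each list and a dashed line at the median of all features. Pump subunits and assembly factors lie mostly below 0, cathepsins and hydrolases on both sides, and lens fibre markers far below 0.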

How the data were processed

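Each of the 6 libraries came with its own deposited table of raw counts, CPM and RPKM per feature. Per the file headers, the raw column holds read counts, and the values were whole numbers. The deposited CPM equals the count scaled by the library total alone within 1e-06, and the authors' RPKM is that CPM divided by 1 length per feature. GRCm38 and edgeR are named in the submitters' processing notes, with aligner, counting program and annotation not given in the sources used here. Libraries were poly-A selected, unstranded and read as single ends of 51 bp, per the labels' protocols. In 26 features, none of them among the 47 genes, the count and the CPM did not belong together, and these features were left out.

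Counts were tested in R 4.3.3 with edgeR 4.0.16 (quasi-likelihood test with robust fit, TMM, filterByExpr with a minimum count of 10, no covariate) in 3 cKO and 3 wild type libraries, with p-values adjusted by Benjamini-Hochberg over all 14271 features tested and a threshold of 0.05. The script was tested on simulated counts. Levels are TMM-scaled CPM, or deposited RPKM divided by the TMM factor between genes. An exact permutation test of 3 against 3 cannot go below p = 0.1 and was not used. Depth was 9082219 to 28391662 counts per library, and intervals and floors cover counting error only.

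Every tested gene of the set was described, called genes with all library values, and of each other list at most 5 called genes by size of change, plus Tcirg1, Tfeb, Tfe3 and Mitf. Some genes this rule names are not reported here. Other genes are mentioned only with marker lists. The 47 genes and all lists were chosen with earlier results of these data known. All 47 genes were found by their deposited Ensembl identifier in GENCODE release M21 of GRCm38, which gave positions and overlaps. Promoters are RefSeq sequences of GRCm38.p6, matched by symbol. Alternatives were RLE, upper quartile and no scaling factors, crystallins left out, no filter, a filter of 1 CPM in 3 libraries, DESeq2 1.42.0, limma-voom (limma 3.58.1), the replicate number as a block, and each library left out.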

Additional observations from a re-analysis of the deposited data

How the results depend on the processing

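The number of called genes among the 47 was 21 with TMM and 17 to 21 under the 9 other settings, and 14 to 23 with single libraries left out. Of the 17 with library totals alone, only 12 were also called with TMM. Atp6v1g2, Ctsb, Ctse, Ctsh and Ctss were called there only in addition. With the replicate number as a block it was 20, and of the 47 only Atp6v0b lost its call (adjusted p = 0.0757), as did the sorting genes Gga1 and Sort1 (adjusted p = 0.079 and 0.0607) outside them. Correlations of the deviations from the group means were -0.0276, 0.254 and 0.111 for same-numbered cKO and wild type libraries. Those of differently numbered libraries were -0.224 to 0.0878. Whether same-numbered libraries shared a batch was not tested. The block called 4301 of all features, against 4612 without it. The other lysosomal genes called numbered 28, and 17 to 39 with single libraries left out, with 17 without wild type library 2 and 17 without wild type library 3. All features called numbered 2323 to 5301 with single libraries left out, with 2323 without wild type library 2 and 2579 without wild type library 3. The Prox1 log2 fold change ranged from -0.87 to -0.65 with single libraries left out.

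Across settings and named genes, 749 values kept direction and side of the threshold, and 16 turned sign. With the sign kept, 70 lost the call and 14 gained it. The 16 include Atp6v1a, Gga1 and Sort1 with library totals alone, which also lost their call (adjusted p = 0.845, 0.686 and 0.559). With library totals alone, the log2 fold changes turned to 0.11 for Atp6v0a1, 0.10 for Atp6v0c, 0.20 for Atp6v0d1, 0.33 for Atp6v0e, 0.033 for Atp6v1a, 0.16 for Atp6v1d, 0.18 for Atp6v1g1, 0.21 for Atp6v1h, 0.26 for Ctsa, 0.071 for Gga1, 0.084 for Mitf and 0.089 for Sort1. The median of all features was 0.39 there. Upper quartile scaling turned Atp6v0e to 0.020 and ended the calls of Atp6v0b and Atp6v1a (adjusted p = 0.0646 and 0.0671). With single libraries left out, Atp6v0e ranged from -0.11 to 0.062 (0.062 without cKO library 3, 0.026 without wild type library 2), and Tfe3 from -0.019 without cKO library 2 to 0.16. Lamp2 was not called without the filter (adjusted p = 0.0578), nor Dnase2b without it or with limma-voom (adjusted p = 0.0842 and 0.101), nor Atp6v0b with the 1 CPM filter or limma-voom (adjusted p = 0.0503 and 0.0768). The cause was not tested in these cases. With union exon lengths, an alternative chosen after seeing the data, Atp6v0a1 and not Atp6v0a2 was the larger a form in both groups, while the direction of each B, a and e share between groups was kept.

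Depth was lowest in cKO library 3, where 3 counts equal 0.33 CPM, so that changes of genes under about 1 CPM are poorly resolved.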
